A study of Mus musculus with 6 samples.

Results

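The genes described are 10 surface and endosomal receptors through which macrophages and microglia take up particles, lipoproteins and antibody-coated material: the mannose receptor Mrc1, the scavenger receptors Msr1, Cd36, Scarb1 and Cd68, the Fc gamma receptors Fcgr1, Fcgr2b, Fcgr3 and Fcgr4, and their signalling subunit Fcer1g. They were chosen by name, and each of the 10 had a row among the 12327 genes of the expression table. RNA was sequenced from BV2, an immortalised mouse microglial line, in 3 libraries of GCH1 knockdown cells and 3 negative control libraries. Knockdown was by adenoviral infection lasting 48 hours, and the group is named Ad-shGCH1, for a short hairpin RNA directed at GCH1. The controls are named Ad-NC in the treatment label and wild type in the series text, so whether they carried a virus is not clear from the labels. Both groups came from a single subline grown in high-glucose medium with serum, and no separate cultures are named, so the p-values measure only the spread between libraries, which may be technical. GCH1, GTP cyclohydrolase I, limits the rate at which cells make the cofactor tetrahydrobiopterin, and the comparison asks how these receptor transcripts stood when it was reduced.

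Fc gamma receptors bind the constant part of IgG and trigger engulfment of antibody-coated targets. Fcgr1, Fcgr3 and Fcgr4 are activating and signal through Fcer1g, the common gamma chain, whose immunoreceptor tyrosine-based activation motif (ITAM) recruits the kinase Syk, while Fcgr2b carries an inhibitory motif (ITIM) in its own tail. Scavenger receptors bind modified lipoproteins, apoptotic cells and microbial polyanions, and Mrc1, a C-type lectin widely used as a marker of alternative macrophage activation, binds mannose-bearing glycoproteins and collagen.

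The inhibitory receptor Fcgr2b and the activating receptor Fcgr3 are close paralogs, and the longest run of coding sequence that their transcripts share is printed because reads within it cannot be assigned to either gene by sequence. The run is 129 bases long, lies in the part that encodes the extracellular domains, and crosses a splice junction in both genes; capitals mark the 27 bases of the downstream exon (GENCODE M21 transcripts, GRCm38, minus strand).
Fcgr2b and Fcgr3: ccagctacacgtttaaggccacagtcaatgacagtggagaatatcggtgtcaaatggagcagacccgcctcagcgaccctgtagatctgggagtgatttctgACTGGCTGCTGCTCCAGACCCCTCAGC
In Fcgr2b it covers coding bases 278 to 406, at chr1:170967980-170968081 and chr1:170966674-170966700, and in Fcgr3 coding bases 263 to 391, at chr1:171057691-171057792 and chr1:171054167-171054193. Of all 50-base windows in annotated Fcgr3 transcripts, 166 of 1733 (9.58%) also occur in Fcgr2b and none in another gene. In Fcgr2b, 395 of 5685 windows (6.95%) occur in some other gene, 166 of them in Fcgr3. Matches on either strand were counted, and the antisense gene Gm38204 ranks next after Fcgr3 among the 146 other genes. Of the other receptors, Scarb1 shared 6 of 8530 windows with other genes, and Mrc1, Msr1, Cd36, Cd68, Fcgr1, Fcgr4 and Fcer1g shared 0. How reads in shared sequence were assigned is not given in the sources used here, so the separate values of Fcgr2b and Fcgr3 are uncertain to that extent.

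No label names the unit of the table; the values are taken, from their spacing, as FPKM (fragments per length of transcript and per depth of library), so levels may be compared between genes per length. Sums were 224291 to 230292 FPKM per library. The aligned sequence behind each library, estimated from the spacing of the values, was 5.25 to 5.58 Gb (gigabases) in the controls and 6.32 to 7.61 Gb in the knockdown libraries, with no overlap between the groups. Gch1 was at 6.89, 7.22 and 7.23 FPKM across controls against 3.20, 2.93 and 3.43 FPKM across knockdown libraries, as labelled (log2 fold change -0.96, with SE 0.06 and limma BH adjusted p = 0.00542). With a replicate block the same fold change had a limma BH adjusted p of 0.0604 and did not pass, nor did any other gene, a count of 0 against 10 without it (1330 and 1380 genes at an unadjusted limma p under 0.05). Of 14 microglia and macrophage markers, 9 had a row, among them Csf1r at 50.05 FPKM and Tmem119 at 0.567 FPKM, as control means. P2ry12, P2ry13, Sall1, Gpr34 and Siglech, which mark microglia in tissue, had no row. Markers of neurons and neutrophils had 0 rows of 5 each, and those of astrocytes, oligodendrocytes, endothelial cells, fibroblasts and lymphocytes had 1 or 2 each, with none past the test.

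BV2 cells carried all 10 transcripts at levels spread from 2.62 to 486.0 FPKM in the controls. The lysosomal glycoprotein Cd68 was the most abundant receptor, at 486.0 ± 10.2 FPKM (SD, n = 3), at the 99.7 percentile of all genes by level. Fcer1g followed at 239.7 ± 2.8 FPKM and Fcgr3 at 133.7 ± 18.3 FPKM. Next came Fcgr2b at 33.9 FPKM, Fcgr4 at 15.1 FPKM and Fcgr1, the high-affinity IgG receptor, at 9.53 FPKM. The lipid receptors Cd36 and Scarb1 stood at 8.85 and 8.76 FPKM, and Mrc1 and the class A scavenger receptor Msr1 were lowest, at 3.30 and 2.62 FPKM. The order was the same in every control library except among Fcgr1, Cd36 and Scarb1, whose neighbours in the order overlapped; the ranges of Mrc1 and Msr1 came close without overlapping. Cd68, Fcer1g and Fcgr3 together made up most of the summed FPKM of the 10 genes, with control shares of 51.6%, 25.5% and 14.2%. The plot of receptor transcripts by library shows the order and the spread.

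**Figure D1:**
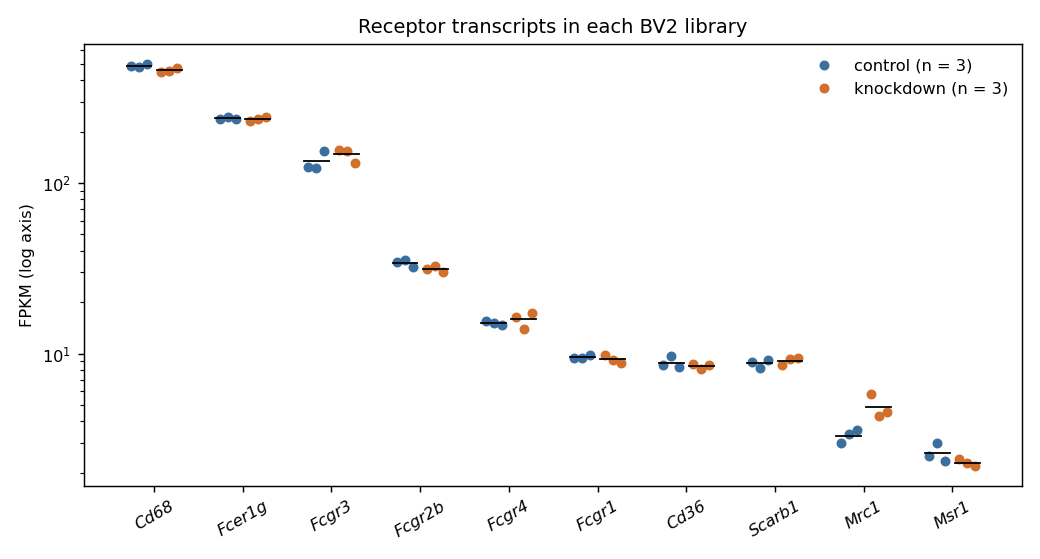
FPKM of the 10 receptor transcripts in each library, on a log axis, with controls in blue, knockdown libraries in orange (points from left to right are libraries 1 to 3) and the mean of each group as a black line. Levels run from 2.62 FPKM for Msr1 to 486.0 FPKM for Cd68 in the controls, and Mrc1 shows the widest gap between the groups.

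None of the 10 receptors passed the test between knockdown and control, a count of 0, at a limma BH adjusted p of 0.05 over the 12222 genes tested, where 0.0818% of genes passed. At an unadjusted limma p under 0.05 there was 1, Mrc1, against 11.3% of all genes. Groups did not overlap in 2 of the 10, against 18.4% of all genes. These were Mrc1, above control (9.99% of all genes), and Cd68, below it (8.36%). Fold changes were below 0 in 6 of the 10, against 47.0% of all genes, and their median was -0.03 log2 against 0.01 over all genes. These shares rest on few receptors and depend on the processing. With the trend on GC content and length removed, 5 of the 10 were at an unadjusted limma p under 0.05 (Cd36, Cd68, Fcgr2b, Mrc1 and Msr1) against 12.4% of all genes, and 4 of the 10 against 11.7% with a replicate block as well. None passed the BH adjustment in either fit, a count of 0 in each. The half-width of the 95% confidence interval ran from 0.08 log2 for Fcer1g to 0.25 log2 for Fcgr3. Apart from those of Mrc1 and Fcgr3, the intervals lay between -0.32 and 0.25 log2 on the scale of FPKM + 1, which understates changes of weak genes. In bulk RNA, a change in a few cells and a smaller change in all cells cannot be told apart.

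**Figure D2:**
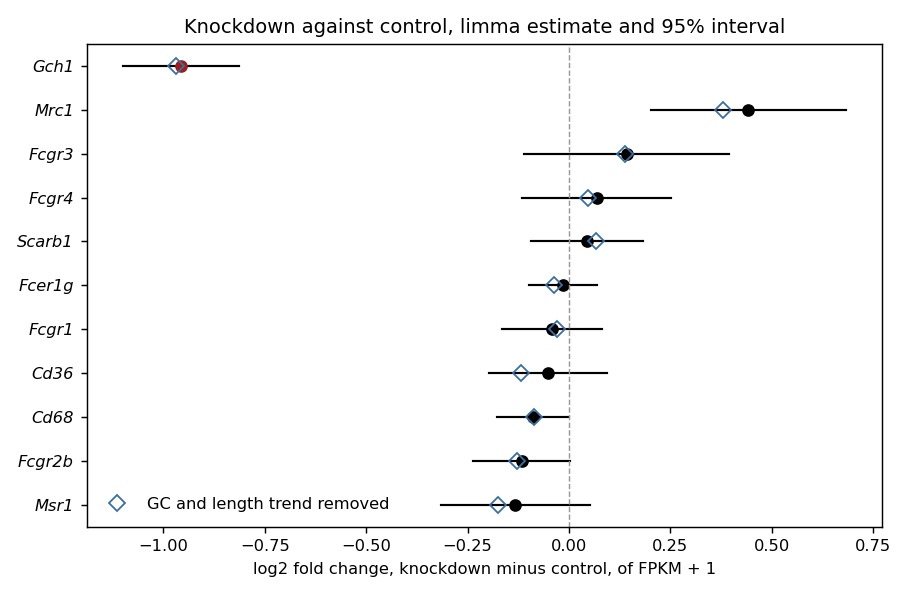
Log2 fold change of FPKM + 1, knockdown minus control, for the 10 receptors and Gch1, with the limma estimate (filled circle, red where the BH adjusted p was under 0.05) and its 95% confidence interval, and the estimate after removal of the trend with GC content and length (open diamond). Gch1 alone of these genes passed, a call lost with a replicate block (limma BH adjusted p = 0.0604), and among receptors only the interval of Mrc1, 0.20 to 0.68, leaves out 0.

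Mrc1 (ENSMUSG00000026712.3, GRCm38 chromosome 2, 14229392 to 14332057, plus strand) was at 2.99, 3.38 and 3.54 FPKM across controls against 5.77, 4.32 and 4.53 FPKM across knockdown libraries. Every knockdown library lay above every control, and knockdown 1 stood apart from the other two. The means were 3.30 ± 0.28 and 4.87 ± 0.78 FPKM (SD, n = 3 each), so the knockdown mean was 147.4% of control. The log2 fold change was 0.44 (SE 0.10, 95% confidence interval 0.20 to 0.68, limma BH adjusted p = 0.269), the 150th smallest p of all genes tested. A two-sided exact permutation test gave p = 0.1, its lower limit with 3 libraries a group. Across the alternatives tried, the fold change stayed above 0 in all 15 that kept the gene, from 0.34 without knockdown 1 to 0.54 with a pseudocount of 0.1, and the adjusted p from 0.241 to 0.49.

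Depth and GC content moved with the groups beside this value. When protein-coding genes were split into 5 groups by GC content of their transcripts, the lowest-GC group had a median log2 fold change of 0.05 and the highest-GC group -0.03. Transcripts of Mrc1 average 39.6% GC, under the 42.9% median of the lowest group. With the trend on GC content and length removed, Mrc1 was at 0.38 (SE 0.10, limma BH adjusted p = 0.271). The Mrc1 values rest on an estimated 62.1 to 72.8 kb of aligned sequence in the controls and 106.6 to 163.3 kb in the knockdown libraries, at the mean length of its 2 annotated transcripts. The part of depth in the result was not tested. Mir511 is annotated on the same strand within Mrc1 and had no row.

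The other scavenger receptors did not pass the test. Msr1 (chromosome 8, 39581685 to 39642673), a trimeric receptor for modified lipoproteins, was at 2.52, 2.99 and 2.35 FPKM across controls against 2.41, 2.29 and 2.20 FPKM across knockdown libraries. The groups overlapped through control 3, and control 2 was the highest of the 6. Its log2 fold change was -0.13 (95% confidence interval -0.32 to 0.05), and ran from -0.19 without control 3 to -0.06 without control 2. With the GC and length trend removed it was -0.18 (SE 0.05, limma BH adjusted p = 0.305). Msr1 rests on the least sequence of the 10, an estimated 22.7 to 32.0 kb per library.

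Cd36 (chromosome 5, 17781690 to 17888801), which takes up oxidised lipoproteins and long-chain fatty acids, was at 8.53, 9.62 and 8.39 FPKM across controls against 8.74, 8.12 and 8.60 FPKM across knockdown libraries. The groups overlapped, and control 2 was again the highest library. Its log2 fold change was -0.05 (95% confidence interval -0.20 to 0.09). The value was 0.00 without control 2, where its sign turned, and -0.12 with the GC and length trend removed. Scarb1 (chromosome 5, 125277087 to 125341094), the HDL receptor that mediates selective uptake of cholesteryl esters, was at 8.87, 8.23 and 9.20 FPKM across controls against 8.55, 9.25 and 9.42 FPKM across knockdown libraries. Its groups overlapped too, with a log2 fold change of 0.04 (95% confidence interval -0.09 to 0.18). Leaving out 1 library moved it from 0.00 without control 2 to 0.08 without knockdown 1. Gm42633, a transcript of unverified type on the same strand within Scarb1, was at 0.855 to 1.36 FPKM over the 6 libraries (log2 fold change 0.15, limma BH adjusted p = 0.517).

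Cd68 (chromosome 11, 69664213 to 69666153), a heavily glycosylated protein of lysosomes and a common marker of phagocytic microglia, was at 482.5, 478.0 and 497.5 FPKM across controls against 448.0, 451.9 and 471.2 FPKM across knockdown libraries. All 3 knockdown libraries lay below all 3 controls, by a small margin between knockdown 3 and control 2. The knockdown mean was 94.0% of control and the log2 fold change -0.09 (SE 0.04, 95% confidence interval -0.18 to 0.00, limma BH adjusted p = 0.447). The exact permutation p was 0.1, the smallest possible.

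The genes of 4 of the receptors lie within 275.7 kb of chromosome 1, in the order Fcgr2b (170958617 to 170976547), Fcgr4 (171018920 to 171029761), Fcgr3 (171051174 to 171064935) and Fcer1g (171229572 to 171234365), with Fcgr4 on the plus strand and the rest on the minus strand. Mir6546 is annotated on the same strand within Fcgr3 and the snRNA gene Gm26110 within Fcgr4, and neither had a row. None of the 4 receptor genes passed the test, the confidence interval of each included 0, and differences between them were not tested. Fcer1g was the steadiest, at 237.9, 242.9 and 238.4 FPKM across controls against 231.1, 236.0 and 244.8 FPKM across knockdown libraries. The controls lay within the range of the knockdown libraries, with a log2 fold change of -0.02 (95% confidence interval -0.10 to 0.07), the narrowest interval of the 10.

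Among the activating receptors, Fcgr1 (chromosome 3, 96282909 to 96293969) was at 9.36, 9.46 and 9.78 FPKM across controls against 9.83, 9.11 and 8.78 FPKM across knockdown libraries, with a log2 fold change of -0.04 (95% confidence interval -0.17 to 0.08). Knockdown 1 was above every control and the other knockdown libraries below them, and the estimate ran from -0.08 without knockdown 1 to -0.01 without knockdown 3. Fcgr4 was at 15.6, 15.02 and 14.7 FPKM across controls against 16.5, 13.9 and 17.4 FPKM across knockdown libraries, with a log2 fold change of 0.07 (95% confidence interval -0.12 to 0.25). Knockdown 2 was the lowest of the 6 and the other knockdown libraries the highest, so the estimate ran from 0.01 without knockdown 3 to 0.15 without knockdown 2.

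Fcgr3 was at 124.1, 122.3 and 154.8 FPKM across controls against 156.4, 154.7 and 130.7 FPKM across knockdown libraries. The 6 libraries stood at a lower level in controls 1 and 2 and knockdown 3 and at a higher one in control 3 and knockdown 1 and 2, so each group held both. The log2 fold change was 0.14 (SE 0.11, 95% confidence interval -0.11 to 0.39, limma BH adjusted p = 0.636), the widest interval of the 10. It ran from 0.08 without control 2 to 0.25 without control 3, and was 0.09 without control 1, 0.22 without knockdown 3 and 0.10 without knockdown 1. Its spread within groups, 0.17 log2 (SD), exceeded that of 95.2% of the 400 most abundant genes tested, a set that holds Fcgr3 itself. The median spread of that set was 0.06. Cd68 and Fcer1g, which were more abundant, had spreads of 0.03 log2 each. Fcgr4 also stood in the upper part, above 82.0% of the 400 genes nearest to it in level, and Mrc1 likewise above 79.5%.

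**Figure D3:**
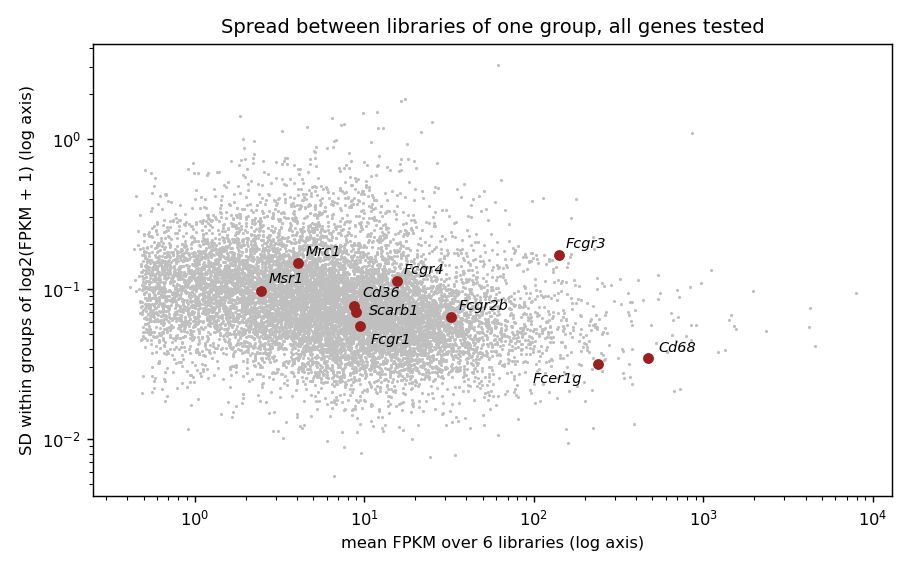
SD of log2(FPKM + 1) within groups (pooled over the 2 groups of 3 libraries, log axis) against mean FPKM over the 6 libraries (log axis), with the 12222 genes tested in grey and the 10 receptors in red. Fcgr3, at 0.17, lies above most genes of its level, while Cd68 and Fcer1g lie low, at 0.03 each.

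The inhibitory receptor Fcgr2b was at 34.2, 35.4 and 32.1 FPKM across controls against 31.1, 32.5 and 29.9 FPKM across knockdown libraries. The groups overlapped only through knockdown 2 and control 3. Its means were 33.9 ± 1.7 and 31.2 ± 1.3 FPKM (SD, n = 3 each), a difference of -0.12 log2 (SE 0.05, 95% confidence interval -0.24 to 0.00, limma BH adjusted p = 0.456). An antisense gene, Gm38204, is annotated across its 5′ end and had no row; whether counting used strand is not given in the sources used here.

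As a description of the balance between activating and inhibitory receptors, the summed FPKM of Fcgr1, Fcgr3 and Fcgr4 was divided by that of Fcgr2b in each library. The ratio was 4.35, 4.15 and 5.59 in the controls and 5.87, 5.46 and 5.25 in the knockdown libraries. Controls 1 and 2 were lowest, but control 3 lay inside the range of the knockdown libraries, so the groups overlapped. The means were 4.70 ± 0.78 and 5.53 ± 0.32 (SD, n = 3 each), a difference of 0.83. That difference was larger without control 3 (1.28), knockdown 2 or knockdown 3, and smaller without control 1, control 2 or knockdown 1. Fcgr3 supplied most of the numerator, and the ratio carries the spread of that gene and the shared sequence described above. Fcer1g exceeded the summed activating receptors in every library, at 1.27 to 1.66 times their FPKM.

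**Figure D4:**
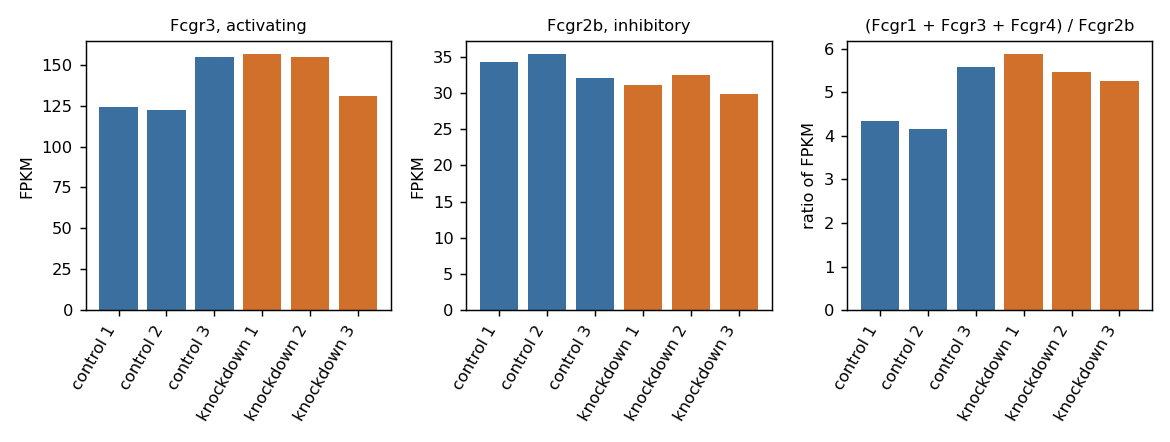
FPKM of Fcgr3 and Fcgr2b and the ratio of summed activating Fc gamma receptor FPKM to Fcgr2b FPKM in each of the 6 libraries (1 bar per library, axes from 0, controls blue and knockdown orange). Control 3 has an Fcgr3 level of 154.8 FPKM and a ratio of 5.59, within the range of the knockdown libraries.

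The wider uptake machinery was read from 11 gene lists, which held 158 tested genes besides the receptors. None of the 158 passed at a limma BH adjusted p of 0.05, a count of 0. At an unadjusted limma p under 0.05 there were 15, which is 9.49%, and 31 (19.6%) had groups that did not overlap, both near the shares of all genes. Their median log2 fold change was 0.012, beside 0.0071 over all genes.

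Other Fc and immunoglobulin receptors had 4 tested members of 14, with 3 above control and a median of 0.06. The neonatal receptor Fcgrt, which recycles IgG, was at 7.43 ± 0.25 and 7.86 ± 1.03 FPKM in control and knockdown (SD, n = 3 each), and the cytosolic receptor Trim21 at 0.818 and 0.899 FPKM. Other scavenger and mannose-family receptors had 7 tested members of 22, with 3 above control and a median of -0.01. The collectin Colec12 was the highest of those named, at 102.7 and 107.2 FPKM. The lipopolysaccharide co-receptor Cd14 was at 82.4 and 81.8 FPKM, and the endocytic receptor Lrp1 at 78.7 and 74.3 FPKM. Stab1, a receptor for acetylated lipoprotein, had groups that did not overlap (2.87 and 2.62 FPKM, log2 -0.10, limma BH adjusted p = 0.553). Groups did not overlap in 2 of the 7 below control, Stab1 among them, against 8.36% of all genes. Marco and Cd163 had no row, so these macrophage scavenger receptors were not analysed here.

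C-type lectin receptors and adaptors, 10 tested of 14, had 6 above control and a median of 0.01. The member with the smallest p was Clec4n (Dectin-2), a receptor for fungal mannans that also signals through Fcer1g. It was at 3.43 ± 0.59 FPKM across controls against 4.92 ± 0.45 FPKM across knockdown libraries (SD, n = 3 each), without overlap, or 0.43 log2 (SE 0.11 and limma BH adjusted p = 0.292). Clec4n was the only member whose groups did not overlap, 1 of 10, against 18.4% of all genes. Its relatives Clec4d, at 48.4 and 53.4 FPKM, and Clec4e, at 9.29 and 9.39 FPKM, were at 0.14 and 0.02 log2.

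Signalling genes behind the Fc receptors did not pass the test. Of 21 tested ITAM signalling genes, 12 were above control, with a median of 0.00. Groups did not overlap in 4 of the 21 below control, Syk and Gab2 among them, and in 1 above it. Over all genes the shares were 8.36% below and 9.99% above. The kinase Syk was at 18.97 ± 0.15 and 18.3 ± 0.47 FPKM (SD, n = 3 each), the Src-family kinase Lyn at a log2 fold change of 0.05, and the ITAM adaptor Tyrobp at 264.6 and 258.8 FPKM. The scaffold Gab2 had the smallest p of the list (log2 -0.13, limma BH adjusted p = 0.338). Of 19 tested ITIM receptors and phosphatases, 12 were above control, with a median of 0.04. The lipid phosphatase Inpp5d (SHIP1), which acts with Fcgr2b, was at 18.6 and 17.6 FPKM, and the phosphatase Ptpn6 (SHP-1) at 43.5 and 44.2 FPKM. Reads may be shared between the inhibitory receptor gene Lilrb4a and its close relative Lilr4b. These genes were at log2 -0.10 and -0.14 (limma BH adjusted p = 0.456 and 0.327).

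Engulfment and actin genes, 27 tested of 27, were split 13 above and 14 below control, with a median of 0.00. Groups did not overlap in 3 of the 27 above control and 5 below, against 9.99% and 8.36% of all genes. Among the small GTPases that drive the phagocytic cup, Rac1 was at log2 0.10, Cdc42 at 0.08 and Rac2 at -0.11, each without overlap between the groups. Cdc42 was at 0.03 with the GC and length trend removed and at 0.04 without control 3. The limma BH adjusted p of these 3 ranged from 0.373 to 0.528. Elmo2, which acts with Dock proteins upstream of Rac, was at -0.10, and the membrane motor Myo1e at -0.15 (64.1 and 57.9 FPKM, limma BH adjusted p = 0.292), the smallest p of the list. Genes for uptake of apoptotic cells had 12 tested of 18, with 4 above control and a median of -0.02. Among them Mertk, a receptor kinase for apoptotic cells, was at 4.43 and 4.42 FPKM and the bridging protein gene Mfge8 at 63.9 and 60.6 FPKM.

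Phagosome maturation genes, 20 tested of 22, had 13 above control and a median of 0.05. The lysosomal membrane gene Lamp1 was at 201.6 and 196.0 FPKM and Lamp2 at 47.8 and 50.1 FPKM. Hgs, an endosomal sorting protein that binds phosphatidylinositol 3-phosphate, was at 17.9, 18.7 and 18.6 FPKM across controls against 14.8, 15.2 and 16.6 FPKM across knockdown libraries. Vamp7, a SNARE of late endosomes, had means on the other side, 3.76 ± 0.48 and 4.82 ± 0.15 FPKM (SD, n = 3 each). The groups of both genes did not overlap, at log2 -0.23 and 0.30, and the limma BH adjusted p was 0.262 and 0.304. In the list, groups did not overlap in 3 of the 20 above control, Vamp8 among them, and in 2 below it. Over all genes the shares were 9.99% above and 8.36% below.

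The list of alternative activation genes, without Mrc1, had 9 tested of 20, with 5 above control and a median of 0.04. The interleukin-4 receptor chain Il4ra was at 2.83 and 2.71 FPKM and the transcription factor Stat6, which acts below it, at 29.4 and 30.2 FPKM. Igf1 was at log2 0.14 and Tgfb1 at -0.14 (limma BH adjusted p = 0.444 and 0.349), each without overlap. Irf4, weak at 0.581 and 0.651 FPKM, also lay above control without overlap. The list thus had 2 such genes above control and 1 below, against 9.99% and 8.36% of all genes. Arg1, Retnla, Chil3 and Cd163, other widely used markers of that state, had no row and were not analysed here.

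**Figure D5:**
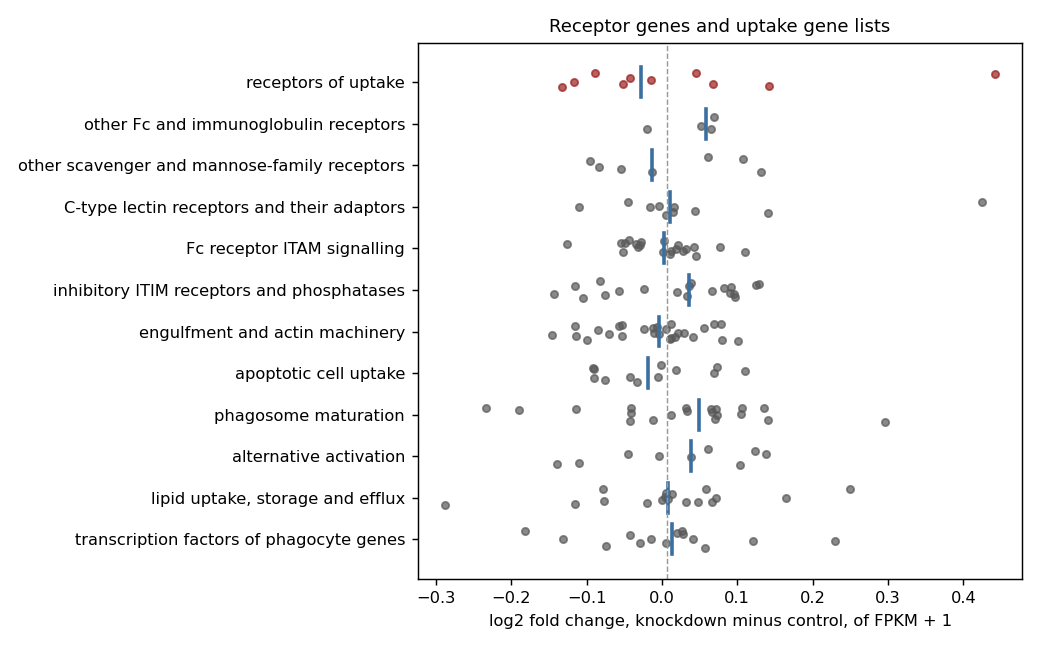
Log2 fold change of FPKM + 1, knockdown minus control, for each tested gene (1 point per gene) of the 10 receptors (red) and the 11 uptake lists (grey), with list medians as blue bars and the median of all genes, 0.01, as a dashed line. Medians run from -0.03 for the receptors to 0.06 for other Fc and immunoglobulin receptors, and Mrc1, at 0.44, and Clec4n, at 0.43, lie farthest to the right.

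The genes whose profile over the 6 libraries lay nearest to that of Mrc1 were sought among 11223 genes of at least 1 FPKM on average. Likeness was the root mean square difference between profiles of log2(FPKM + 1), each centred on its own mean. The nearest was the calpain subunit gene Capns2 (1.33 and 2.01 FPKM in control and knockdown, difference 0.06), followed by Gm43387, Gm43890, the zinc finger gene Zfp260 and 3110056K07Rik, with differences up to 0.09. The profile of Mrc1 itself departs from its mean by 0.25 on that scale. All 5 were weakly expressed, at 1.05 to 1.41 FPKM in the controls. They had their highest value in knockdown 1, as Mrc1 did, which follows from choosing them by likeness to Mrc1. Knockdown 1 was also the library with the most aligned sequence, and the part of depth in this likeness was not tested. None of the 5 passed the test (limma BH adjusted p 0.24 to 0.387).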

How the data were processed

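The 6 libraries were prepared with a stranded kit after depletion of ribosomal RNA, per the labels' protocols. The deposited table holds 1 value per gene and library, taken here as FPKM computed by the authors: values times transcript length fell within 0.1 of a whole multiple of a fixed step for 74.2% to 78.7% of genes with a single transcript. The authors' counts were not used here, so aligned sequence was estimated from that step and the number of reads behind a value is unknown. HISAT2, StringTie, edgeR and the human build hg38 are named in the submitters' processing notes, without versions or roles, although the identifiers are mouse. In every row at least 1 group mean was 0.501 FPKM or more. GENCODE M21 matched 12306 identifiers without version. 0 columns were unmapped.

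Genes reaching 0.5 FPKM in 3 or more of the 6 libraries were tested with limma 3.58.1 (R 4.3.3) on log2(FPKM + 1), with a mean-variance trend and Benjamini-Hochberg (BH) adjustment over all of them. Groups came from the genotype label. Receptors and lists were chosen with earlier results of these data known. Named genes are the 10 receptors, Gch1, annotated overlapping genes, the 5 genes most like Mrc1, and per list the first 4 measured and the 3 with the smallest p. The test was also tried on simulated data, drawn as independent libraries without a replicate structure, and no result here rests on that trial. Alternatives were a replicate block, each library left out, other filters, pseudocounts and scalings, robust moderation and removal of a loess trend (span 0.3) on GC content and length.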

Additional observations from a re-analysis of the deposited data

How the results depend on the processing

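No receptor and no listed gene passed in any of the 16 alternatives, a count of 0 each time, so their calls did not change. Over all genes, 10 passed as reported, 0 with the replicate block, 0 with the block and GC and length removal (1330 and 1436 genes at an unadjusted limma p under 0.05), and 6 to 18 with a library left out (18 without control 2, 6 without knockdown 2 or knockdown 3). Gch1 missed the threshold with the block (limma BH adjusted p = 0.0604, and 0.0931 with the trend removed too; 0.0028 to 0.0931 over all alternatives). Deviations of same-numbered libraries correlated at 0.095, 0.0593 and 0.0936 across genes; every library matched its own number best, which the labels do not explain. At an unadjusted limma p under 0.05 there were 5 receptors with the GC and length trend removed (Cd36, Cd68, Fcgr2b, Mrc1 and Msr1; 12.4% of all genes), and 4 with the block as well, against 1 as reported; the cause was not tested. Cd36 and Fcer1g changed sign once each, without control 2 and without knockdown 1, both at 0.00 log2. Of the listed genes described, Abcg1, Cd14, Clec4e, Irf8, Mertk, Ptpn6, Spi1, Trim21 and Tyrobp also changed sign in at least 1 alternative, all without a call. The filter on a mean of 5 FPKM removed Mrc1 and Msr1. The number of reads behind a value is unknown.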

Other observations

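Lipid handling genes, which act on the cargo of Cd36 and Scarb1, had 17 tested members of 20, with 12 above control and a median log2 fold change of 0.01, and none passed. The lipoprotein Apoe was at 343.5 ± 6.9 FPKM across controls against 338.9 ± 5.05 FPKM across knockdown libraries (SD, n = 3 each). The cholesterol exporters Abca1 and Abcg1 were at log2 -0.08 and 0.01, and the lipid droplet protein gene Plin2 at -0.12 (limma BH adjusted p = 0.442).

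Transcription factors of phagocyte genes had 14 tested members of 15, with 8 above control and a median of 0.01. Spi1, which encodes the macrophage lineage factor PU.1, was at 41.9 ± 1.9 and 41.5 ± 1.5 FPKM (SD, n = 3 each), and Irf8 at 17.7 FPKM in both groups. Cebpb was at 105.0, 109.1 and 106.7 FPKM across controls against 89.0, 95.7 and 98.0 FPKM across knockdown libraries, without overlap. Its log2 fold change was -0.18 (SE 0.04), and its limma BH adjusted p of 0.291 did not pass. Bhlhe40 also had groups that did not overlap, at log2 -0.13 (limma BH adjusted p = 0.327). Maf, weak at 0.776 and 0.933 FPKM, lay on the other side without overlap, at log2 0.12 (limma BH adjusted p = 0.522). Of the 14, the list thus had 1 such gene above control and 2 below, against 9.99% and 8.36% of all genes.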
